A study of Mus musculus with 6 samples.

Results

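The genes examined are 10 contractile and YAP-SRF target genes, taken from the deposited count table by symbol: Acta2, Tagln, Cnn1, Myl9, Tpm1, Tpm2, Actg2, Ccn1, Ccn2 and Ankrd1. All 10 were found among the 23867 gene symbols of the table. They were measured by bulk RNA sequencing in mouse chondrocytes, the cells that make cartilage matrix, in 3 libraries labelled MFN2Col2a1-/- (KO below) and 3 libraries labelled MFN2wt (WT below). The KO label joins a loss of Mfn2, which encodes the mitochondrial fusion protein mitofusin 2, to the cartilage collagen gene Col2a1, and the KO columns are named CRE1 to CRE3. Strain, age, culture, treatment, the promoter of any Cre and the pooling of animals were not found in the labels. P-values therefore measure only the spread between these libraries, which may be technical. Mfn2 stood at 64.0, 56.5 and 59.4 CPM (read counts scaled to library size and by TMM factors) in the KO libraries, against 108, 108 and 106 CPM in the WT libraries. It was lower in each KO library, as the labels say, and far from 0 (log2 fold change −0.84, adjusted p = 2.24e-10, edgeR).

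Serum response factor (SRF) binds CArG boxes in the promoters of contractile genes. Its coactivators of the MRTF family enter the nucleus when free actin is consumed by filament assembly, so that tension raises actin, tropomyosin, calponin and transgelin transcripts. YAP and TAZ are held in check by the Hippo kinases, bind DNA through TEAD factors, and raise Ccn1, Ccn2 and Ankrd1. In cultured chondrocytes that spread and lose their rounded shape, these programmes are known to accompany the loss of cartilage genes, and high Acta2 is the usual mark of a myofibroblast.

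The 10 genes did not move as a block. The smooth muscle actins Acta2 and Actg2, the secreted matrix protein Ccn2, the myosin light chain Myl9 and the tropomyosin Tpm1 were lower in KO. Ankrd1, Tpm2 and Ccn1 were higher in KO. Tagln and Cnn1 did not pass the test. The largest fall among abundant members was that of Acta2, 2.72-fold lower in KO, and the largest rise was that of Ankrd1, 5.17-fold higher in KO. Ccn1, Ccn2 and Ankrd1, which are usually read together as YAP targets, thus split into 2 that rose and 1 that fell.

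Calls of a difference required p below 0.05 after Benjamini-Hochberg adjustment over the 15028 genes that passed a filter on low counts, with edgeR's quasi-likelihood test. All 10 members passed that filter, each in all 6 libraries. Of the 10, 8 were called, 3 higher and 5 lower. Over all genes tested 62.7% were called, 30.7% higher and 32.1% lower, so the share of members called was near the share of all genes and the count itself is no result about the members. Higher genes made up 48.9% of all calls with TMM factors, 38% under upper-quartile scaling and 26.8% when scaled by total counts. The median log2 fold change (KO against WT) was −0.45 over the members and −0.021 over all genes tested. The groups did not overlap in 9 of the 10 members, against 67.1% of all genes tested. Levels below are in CPM unless FPKM is named, and SE is the standard error of a log2 fold change.

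**Figure D1:**
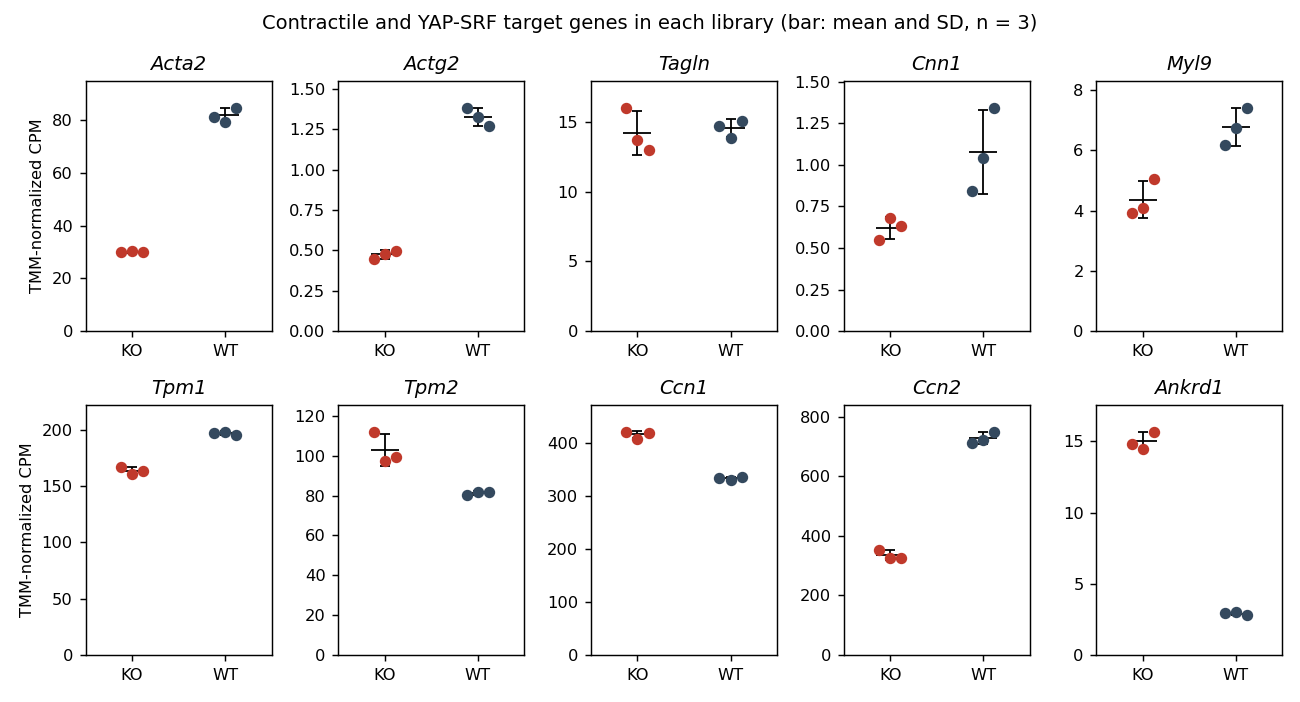
TMM-normalized CPM of each of the 10 genes in the 3 KO libraries (red) and the 3 WT libraries (dark), 1 panel per gene with its own axis from 0; the horizontal bar and whiskers are the mean and SD. The KO points lie below all WT points for Acta2, Actg2, Cnn1, Myl9, Tpm1 and Ccn2, above them for Tpm2, Ccn1 and Ankrd1, and overlap them for Tagln.

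Acta2 encodes smooth muscle alpha-actin, the filament protein of contractile cells. It stood at 29.8, 30.4 and 29.8 CPM in the KO libraries CRE1, CRE2 and CRE3, against 81.3, 79.4 and 84.6 CPM in the WT libraries WT1, WT2 and WT3. The KO libraries lay close together and far below each WT library. On the log2 scale the KO mean fell by 1.44 with an SE of 0.046 (adjusted p = 2.46e-13, edgeR), at percentile 8.31 among the fold changes of all genes tested. Actg2, the gamma-actin of visceral smooth muscle, was scarce, with 13, 17 and 15 reads in the KO libraries against 59, 56 and 55 reads in the WT libraries. In CPM it averaged 0.475 ± 0.026 in KO and 1.33 ± 0.055 in WT (SD, n = 3 each), with a log2 fold change of −1.47 (SE 0.313, adjusted p = 7.35e-04, edgeR). Both smooth muscle actins were therefore lower in every KO library. Their reading frames in GENCODE M21 transcripts were 84.2% identical, with a longest shared run of 29 bases; that of Acta2 and Actg1 was 56 bases. Reads that lie wholly in such a run do not tell the genes apart, and could be counted for either or for neither.

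Myl9 encodes the regulatory light chain that is phosphorylated to start contraction of smooth muscle myosin. It stood at 3.92, 4.10 and 5.05 CPM in the KO libraries, against 6.17, 6.73 and 7.41 CPM in the WT libraries. The groups were separate, with CRE3 nearest to WT. The log2 difference came to −0.64 (SE 0.135, adjusted p = 7.21e-04, edgeR). Cnn1, calponin 1, binds actin and restrains myosin. It had 16, 24 and 19 reads in the KO libraries, against 36, 44 and 58 reads in the WT libraries. The groups did not overlap (0.620 ± 0.065 CPM in KO and 1.08 ± 0.251 CPM in WT; SD, n = 3 each), but the low counts left an SE of 0.334 beside a log2 fold change of −0.79, and the test did not call it (adjusted p = 0.052, edgeR; 0.111 with DESeq2). Cnn1 was called lower under upper-quartile scaling (adjusted p = 0.0316) and with total counts alone (adjusted p = 0.0155).

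Tagln, the actin-binding protein transgelin or SM22-alpha, stood at 16.02, 13.7 and 13.0 CPM in the KO libraries, against 14.7, 13.9 and 15.1 CPM in the WT libraries. The 2 ranges overlap, and CRE1 held the highest value of all 6. The log2 difference came to −0.034 (SE 0.087, adjusted p = 0.757, edgeR). With total counts alone it was called lower (−0.24, adjusted p = 0.0216). A gene of the same programme as Acta2 therefore differed from it in these libraries: the ratio of Acta2 to Tagln, both in FPKM, was 1.19 ± 0.129 in KO and 3.14 ± 0.057 in WT (SD, n = 3 each), a description with no test since the pair was picked with its values known.

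The tropomyosins Tpm1 and Tpm2, which wind along actin filaments and set access for myosin, went opposite ways. Tpm1 stood at 167, 161 and 163 CPM in the KO libraries, against 197, 199 and 196 CPM in the WT libraries. Every KO library was below every WT library, by a modest margin (log2 fold change −0.27, SE 0.032, adjusted p = 2.64e-06, edgeR). Tpm2 stood at 112, 97.2 and 99.5 CPM in the KO libraries, against 80.1, 81.9 and 81.8 CPM in the WT libraries. All KO libraries were above WT, CRE1 most (log2 fold change 0.34, SE 0.050, adjusted p = 2.22e-05, edgeR). These sizes are read against the scaling: with total counts in place of TMM the median over all genes shifted by −0.209 (log2), which put Tpm1 at −0.48 and Tpm2 at 0.13, both still called.

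Promoter sequence was available in RefSeq (build GRCm38.p6, the assembly before the one named for these data) for 7 of the 10 genes, namely Acta2, Ankrd1, Ccn1, Cnn1, Myl9, Tpm1 and Tpm2. Tagln, Actg2 and Ccn2 had no entry. The 250 bases before each start were searched for the CArG box (a core of A and T between CC and GG, its own reverse complement), for CArG-like sites with 1 G or C in that core, and on both strands for the TEAD motif GGAATG, read CATTCC on the other strand. The contractile genes that hold a match are shown because they show which of these elements sit beside the genes that fell. Capitals mark the matches.
Acta2, chr19:34255374-34255623, minus strand: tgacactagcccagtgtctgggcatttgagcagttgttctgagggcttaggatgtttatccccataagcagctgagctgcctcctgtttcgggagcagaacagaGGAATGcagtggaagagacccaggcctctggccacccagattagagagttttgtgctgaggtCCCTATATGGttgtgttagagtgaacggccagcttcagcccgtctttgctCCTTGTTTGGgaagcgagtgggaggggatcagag
Myl9, chr2:156775214-156775463, plus strand: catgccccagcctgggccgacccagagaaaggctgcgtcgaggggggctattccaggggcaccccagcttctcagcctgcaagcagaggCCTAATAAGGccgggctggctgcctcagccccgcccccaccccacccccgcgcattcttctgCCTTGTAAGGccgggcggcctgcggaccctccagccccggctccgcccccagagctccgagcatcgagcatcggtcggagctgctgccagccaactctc
Tpm1, chr9:67049214-67049463, minus strand: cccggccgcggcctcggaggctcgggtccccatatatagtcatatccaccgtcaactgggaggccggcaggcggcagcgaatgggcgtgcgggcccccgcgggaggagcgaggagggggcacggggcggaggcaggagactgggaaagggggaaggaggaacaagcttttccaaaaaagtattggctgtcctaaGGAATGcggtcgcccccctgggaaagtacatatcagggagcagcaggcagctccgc

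Acta2 holds 2 CArG-like sites, CCCTATATGG and CCTTGTTTGG, which end 75 and 25 bases before the start, and 1 TEAD motif. Myl9 holds the CArG box CCTAATAAGG, the single strict match among the 7 promoters, and the CArG-like CCTTGTAAGG. Tpm1 holds 1 TEAD motif and no CArG match, and Cnn1 and Tpm2 hold no match to either in this window. Among all 32851 promoter entries of the table, 1.47% hold a strict CArG box, 8.59% a strict or CArG-like match and 12.6% a TEAD motif. None of the motif matches in these promoters overlap each other.

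The matricellular proteins Ccn1 (CYR61) and Ccn2 (CTGF) are secreted, bind integrins and growth factors, and are the most used readouts of YAP. Ccn2 is also abundant in cartilage, where it is known to promote matrix production. Ccn2 stood at 354, 326 and 326 CPM in the KO libraries, against 710, 723 and 750 CPM in the WT libraries. No KO library came near WT, and the log2 difference came to −1.12 (SE 0.035, adjusted p = 2.21e-13, edgeR), 2.17-fold lower in KO. Ccn1 stood at 421, 408 and 419 CPM in the KO libraries, against 334, 330 and 336 CPM in the WT libraries. All KO libraries lay above WT (log2 fold change 0.32, SE 0.028, adjusted p = 6.87e-08, edgeR; 0.11, adjusted p = 0.00174, with total counts alone). The order of the pair turned over: Ccn1 was 1.47 ± 0.056 times Ccn2 in KO and 0.543 ± 0.013 times Ccn2 in WT, both in FPKM (SD, n = 3 each; a description, with no test).

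Ankrd1 encodes a nuclear and sarcomeric ankyrin-repeat protein of muscle and stretched cells. It stood at 14.9, 14.5 and 15.7 CPM in the KO libraries, against 2.93, 2.98 and 2.78 CPM in the WT libraries. The KO libraries were tightly grouped and several times above WT, and the log2 difference came to 2.37 (SE 0.103, adjusted p = 1.25e-11, edgeR), at percentile 98.0 among all genes tested. Of the 10 members it was the only one raised at least 2-fold, while Acta2, Actg2 and Ccn2 were lowered at least 2-fold. Over all genes tested 7.73% were called higher at least 2-fold and 12% lower at least 2-fold.

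The promoters of Ankrd1 and Ccn1 are shown with their TEAD motifs in capitals, because these 2 genes rose while Acta2 and Tpm1, which carry the same motif, fell. Both are from the same RefSeq build.
Ankrd1, chr19:36119845-36120094, minus strand: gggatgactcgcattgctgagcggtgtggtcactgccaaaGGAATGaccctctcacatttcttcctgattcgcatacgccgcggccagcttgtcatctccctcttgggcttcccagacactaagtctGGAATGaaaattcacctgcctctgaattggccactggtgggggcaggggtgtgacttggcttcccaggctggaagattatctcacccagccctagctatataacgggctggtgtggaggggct
Ccn1, chr3:145649986-145650235, minus strand: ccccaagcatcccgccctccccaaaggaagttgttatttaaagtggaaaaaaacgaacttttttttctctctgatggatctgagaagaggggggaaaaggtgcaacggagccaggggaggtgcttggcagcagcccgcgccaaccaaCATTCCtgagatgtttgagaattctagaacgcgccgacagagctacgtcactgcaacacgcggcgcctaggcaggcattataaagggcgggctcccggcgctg

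Ankrd1 holds 2 TEAD motifs in the same orientation, ending 205 and 118 bases before the start, and Ccn1 holds 1 in the opposite orientation, ending 98 bases before it. Neither holds a CArG match in this window. In all, 4 of the 7 promoters hold a TEAD motif, 2 of genes that rose and 2 of genes that fell. Among all 32851 promoter entries 12.6% hold one. Ccn2, which fell, had no entry, and a relation of the motif to direction was not tested.

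**Figure D2:**
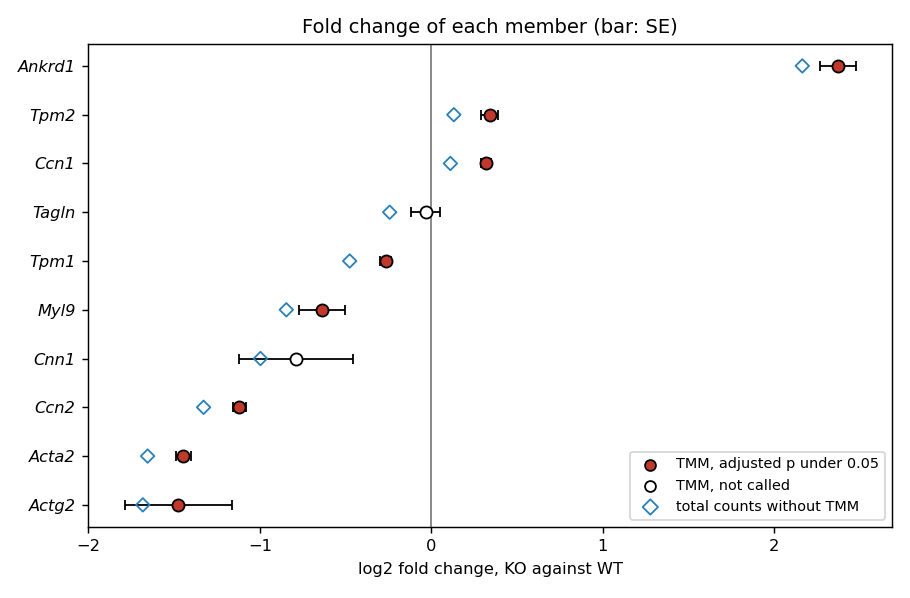
Log2 fold change of each gene, KO against WT, on the x axis, with its SE as a bar; filled red points passed an adjusted p of 0.05 with TMM factors, white points did not, and open blue diamonds are the same values with total counts alone. The diamonds lie to the left of the points, and no called member changes side of 0.

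Per length, the authors' FPKM values put the members over a wide range. In KO the order was Ccn1 (191 FPKM), Ccn2 (130), Tpm2 (28.5), Tpm1 (27.6), Acta2 (9.85), Tagln (8.35), Ankrd1 (7.91), Myl9 (3.59), Actg2 (0.336) and Cnn1 (0.272), as means of 3 libraries. In WT the order was Ccn2 (325 FPKM), Ccn1 (177), Tpm1 (38.4), Acta2 (31.01), Tpm2 (26.0), Tagln (9.86), Myl9 (6.45), Ankrd1 (1.76), Actg2 (1.08) and Cnn1 (0.546). The ranges of Tpm2 and Tpm1 overlap in KO, as do those of Tagln and Ankrd1, and no neighbours overlap in WT. Ankrd1 thus stood level with Tagln in KO and well under it in WT.

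Each member belongs to a family whose other genes do related work in most cells, and the shares of a family's summed FPKM do not depend on the scaling between libraries. Shares were compared with a two-sided exact permutation test, which cannot go below p = 0.1 with 3 libraries against 3. Of the 10 member shares, 8 reached that smallest value without overlap of the groups (p = 0.1, and 0.125 after Benjamini-Hochberg adjustment over the 10), while Ccn2 (p = 0.2, exact) and Cnn1 (p = 0.3, exact) did not. No share can therefore be called by this test.

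The cytoskeletal actins Actb and Actg1 made up nearly all actin transcript. Acta2 held 1.49% ± 0.026 of summed actin FPKM in KO and 2.92% ± 0.107 in WT, and Actg2 held 0.051% ± 0.0027 in KO and 0.102% ± 0.0039 in WT (SD, n = 3 each). Actb and Actg1 were themselves called lower (log2 fold changes −0.58 and −0.23; adjusted p = 6.15e-12 and 2.79e-06, edgeR). Acta1 and Actc1, the skeletal and cardiac actins, were not called, and Acta1 varied between KO libraries (8.80, 4.58 and 11.7 CPM in KO, against 6.87, 6.06 and 5.58 CPM in WT). All 4 actins that changed were thus lower, and Acta2 and Actg2 had the most negative values of the 6.

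Tropomyosin transcript was dominated by Tpm4, the non-muscle form, and this was the family with the largest rise in summed FPKM apart from the small Ankrd1 family. Tpm4 stood at 801, 776 and 777 CPM in the KO libraries, against 358, 357 and 364 CPM in the WT libraries (log2 fold change 1.13, SE 0.027, adjusted p = 7.26e-15, edgeR). It took 81.2% ± 0.294 of tropomyosin FPKM in KO and 65.9% ± 0.386 in WT. The share of Tpm1 was 6.45% ± 0.037 in KO and 13.8% ± 0.175 in WT, and that of Tpm2 was 6.66% ± 0.376 in KO and 9.33% ± 0.082 in WT. Tpm2 thus rose in level and held a smaller share. Tpm3 was slightly lower (−0.11, adjusted p = 0.0063, edgeR). Its fall was smaller than the median shift with total counts (−0.209), which goes the same way. Over the other settings 1 to 2 tropomyosins were called lower.

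In the CCN family the largest fold change was that of Ccn3. Ccn3 (NOV), a CCN protein that often opposes Ccn2, stood at 105, 96.9 and 102 CPM in the KO libraries, against 1050, 1026 and 1057 CPM in the WT libraries (log2 fold change −3.37, SE 0.034, adjusted p = 5.47e-19, edgeR). Ccn5 (−0.94, adjusted p = 1.12e-13) and Ccn4 (−0.50, adjusted p = 2.83e-05, edgeR) were also lower, and Ccn6 was too low to test. Ccn1 was the single CCN gene that rose, and it took 40.4% ± 0.488 of CCN FPKM in KO and 14.5% ± 0.102 in WT. Ccn2 held 27.4% ± 0.736 in KO and 26.7% ± 0.441 in WT, since the sum of the family fell with it, to 472 ± 7.53 FPKM in KO against 1220.5 ± 19.3 FPKM in WT.

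**Figure D3:**
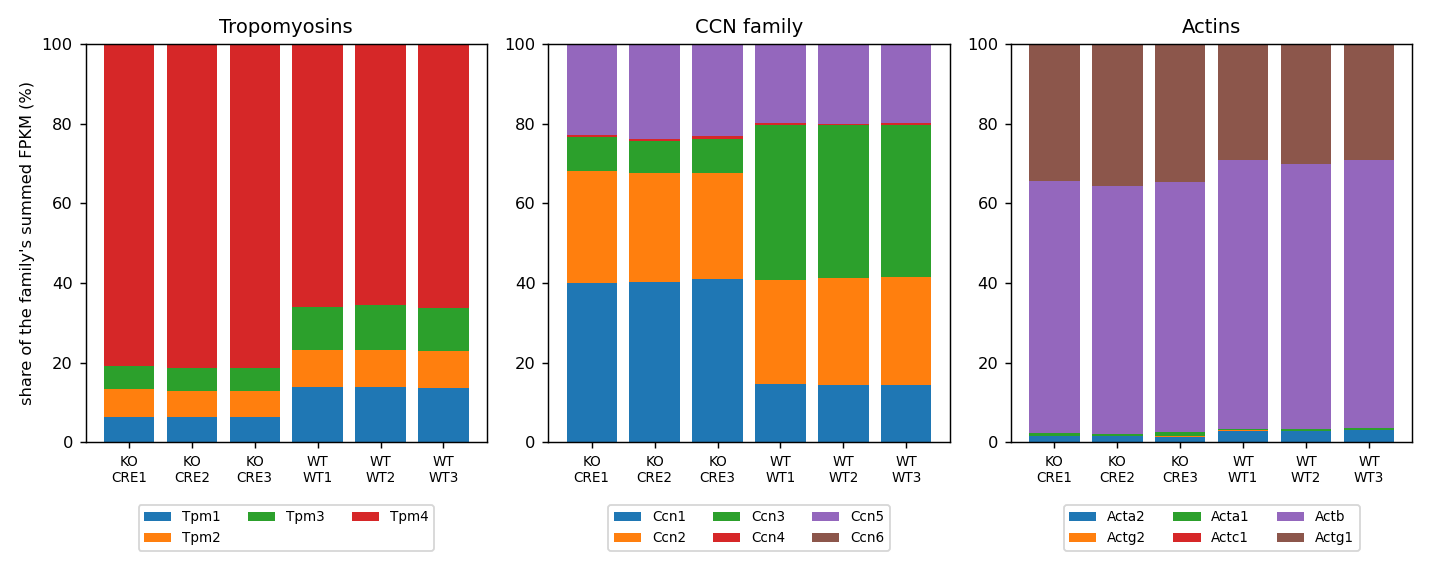
Share of each gene in the summed FPKM of its family, in percent, for tropomyosins, CCN genes and actins, with the 3 KO libraries (CRE1 to CRE3) left of the 3 WT libraries in each panel. Tpm4 takes 81.2% of tropomyosin in KO and 65.9% in WT, Ccn3 takes 8.36% of the CCN family in KO and 38.6% in WT, and Acta2 is a thin layer of the actins in both.

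In the remaining families the members held shares as follows. Cnn1 made up 0.158% of calponin FPKM in KO and 0.202% in WT, and the major calponins Cnn3 (log2 fold change −0.49) and Cnn2 (−0.25) were called lower. Tagln held 10.4% ± 1.04 of transgelin FPKM in KO and 8.93% ± 0.515 in WT, and the more abundant Tagln2 was called lower (−0.27, adjusted p = 2.07e-05, edgeR), while Tagln3 was too low to test. Myl9 held 0.513% ± 0.080 of the light chain FPKM in KO and 0.795% ± 0.062 in WT. Of its partners, Myl12a rose (0.26), Myl6 (−0.11) and Myl6b (−0.34) fell and Myl12b did not pass the test (−0.0085). With total counts alone Myl12a stood at 0.053. The reading frames of Myl12a and Myl12b shared a run of 105 identical bases. Ankrd1 held 84.7% ± 2.70 of the muscle ankyrin repeat FPKM in KO and 57.2% ± 3.84 in WT (SD, n = 3 each), in a family that summed to 9.35 ± 0.632 FPKM in KO and 3.09 ± 0.157 FPKM in WT. Of its relatives, Ankrd23 was not called (0.34, adjusted p = 0.133, edgeR) and Ankrd2 was too low to test.

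The upstream machinery was examined with lists of regulators. Counts of calls in these and the later lists stand beside 30.7% called higher and 32.1% called lower over all genes tested. No list was tested against those shares. Of 16 tested genes of the MRTF-SRF and RhoA route, 6 rose and 3 fell; the median was 0.060 (log2), against −0.021 over all genes tested. The GTPases Rhob (log2 fold change 1.10) and Rhoc (0.79) and the actin-severing cofilin Cfl2 (0.73) were higher, with 217 ± 9.55 CPM of Rhob in KO and 101 ± 0.702 CPM in WT. The central factors are named with their values known. Srf stood at 22.6 ± 1.77 CPM in KO and 21.3 ± 0.813 CPM in WT and was not called (0.086, adjusted p = 0.293, edgeR), Mrtfb was not called (0.035), and Mrtfa was slightly lower (−0.18, adjusted p = 0.00581, edgeR). With total counts alone Srf stood at −0.12 and Mrtfb at −0.17. Myocd, the smooth muscle and heart coactivator of SRF, had 1, 0 and 0 reads in the KO libraries and 4, 8 and 4 reads in the WT libraries, too few to test. Other settings gave 4 to 7 rises and 2 to 9 falls. Upper-quartile factors gave 5 rises and 5 falls. Falls outnumbered rises with total counts alone (5 rises and 9 falls). The same held in limma on filtered FPKM (5 rises and 8 falls) and on unfiltered log2(FPKM + 1) (4 rises and 6 falls).

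Of 23 genes of the Hippo kinases, YAP, TAZ and TEADs, 13 rose and 5 fell (median log2 fold change 0.18). Over the other settings 8 to 15 rose and 3 to 9 fell, with 3 falls without CRE2. The excess of rises was absent with total counts alone (9 rises and 9 falls). It was also absent in limma on unfiltered log2(FPKM + 1) (8 rises and 8 falls). Wwtr1, which encodes TAZ, stood at 261, 254 and 254 CPM in the KO libraries, against 115, 114 and 121 CPM in the WT libraries (log2 fold change 1.14, SE 0.035, adjusted p = 1.54e-13, edgeR). The kinase Lats2 (0.93) and the Hippo pathway scaffold Sav1 (0.93), both brakes on YAP, also rose. Yap1 (0.51) and Tead1 (0.46) were higher and Tead2 (−0.35) was lower, all 3 named with their values known. These are transcript levels and do not show where the proteins sit or whether they are phosphorylated.

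Other targets went both ways too, beside 30.7% called higher and 32.1% called lower over all genes tested. Of 30 tested contractile and focal adhesion SRF targets, 9 rose and 14 fell (median log2 fold change −0.099; 5 to 11 rises and 12 to 19 falls over the other settings, the 5 in limma on filtered FPKM). The collagen-binding integrin Itga1 (−1.35) and the smooth muscle protein Smtn (−1.004) were lower, with Smtn at 48.8 ± 1.90 CPM in KO and 97.8 ± 3.55 CPM in WT, and the PDZ-LIM adaptor Pdlim7 was higher (1.32). Of 19 other YAP-TEAD signature genes, 14 rose and 5 fell, with a median of 0.39 (10 to 14 rises and 4 to 7 falls over the other settings). The ectonucleotidase Nt5e (1.78) rose, and the secreted Ccdc80 (−1.84) and Tgfb2 (−1.33) fell. This list shares Lats2, Amotl2 and Ptpn14 with the Hippo list. Of 11 tested SRF targets of the immediate-early class, 3 rose and 6 fell (median −0.36, with 3 falls in limma on filtered FPKM). Junb (1.73), Dusp1 (1.41) and Ier2 (0.39) were higher. Lower were Egr2 (−2.68), Arc (−2.50), Fos (−1.17), Egr1 (−0.83), Fosb (−0.65) and Mcl1 (−0.36). The 2 largest of these falls were the least precise, with an SE of 0.392 for Egr2 and 0.377 for Arc. Arc was scarce, with 4, 9 and 12 reads in the KO libraries against 62, 64 and 67 reads in the WT libraries.

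Matrix genes of myofibroblasts and TGF-beta response gave 10 rises and 10 falls among 25 tested (median log2 fold change 0.019; 7 to 12 rises and 8 to 13 falls over the other settings). The lysyl oxidase Loxl2 rose (log2 fold change 2.08, adjusted p = 3.54e-16, edgeR). Thrombospondin 1, Thbs1, fell (−1.36). The fibroblast collagen Col1a1, named with its value known, was not called (0.0064, adjusted p = 0.865, edgeR). The other collagens of the list differed: Col3a1 rose (0.72), Col1a2 (−0.64) and Col6a3 (−0.16) fell, and Col5a1 was not called (0.069). Genes of this list thus went both ways in the same libraries in which Acta2 fell.

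**Figure D4:**
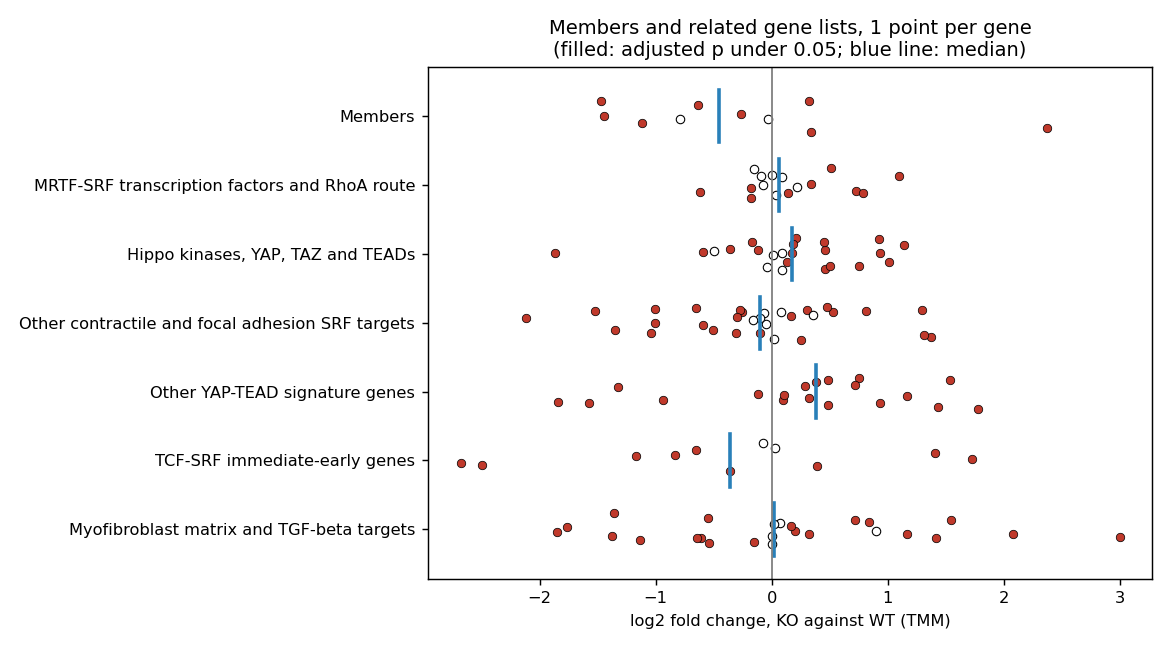
Log2 fold change, KO against WT, of every tested gene of the 10 members and of 6 related lists, 1 point per gene; filled points passed an adjusted p of 0.05, white points did not, and the blue line is the list's median. Each list has called genes on both sides of 0, and Ankrd1 is the point farthest to the right among the members.

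The libraries held 31481779 to 37814723 counts in KO and 39267487 to 40152687 counts in WT. Of 12 chondrocyte markers, 11 fell and 1 rose, and their summed level was 2901 to 3026 CPM in KO and 8278 to 8486 CPM in WT, most of it Col2a1, Col11a1 and Comp. All 12 macrophage markers fell, with sums of 311 to 323 CPM in KO and 2851 to 2878 CPM in WT, led by Lyz2, Mrc1 and Adgre1. Of 9 tested fibroblast and synovial markers 5 rose and 4 fell. Their sums, led by Dcn, Lum and Prg4, were 10925 to 11297 CPM in KO and 5026 to 5312 CPM in WT. Called higher were Dcn (log2 fold change 1.68), Prg4 (1.64), Lum (0.69), Cd34 (0.55) and Dpt (0.18). Called lower were Clec3b (−0.58), Thy1 (−0.47), Ly6a (−0.40) and Pdgfra (−0.091). In bulk libraries fewer cells of a type and less RNA per cell cannot be told apart. The part of these markers in the members' differences was not tested.

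The cell types that hold most Acta2, Tagln and Cnn1 in tissue are smooth muscle cells and pericytes. Of 10 tested markers of them 3 rose and 3 fell, with sums of 857 to 898 CPM in KO and 578 to 593 CPM in WT, led by Ndufa4l2, Cspg4 and Notch3; other settings gave 1 to 4 rises and 1 to 3 falls, with 1 each in limma on filtered FPKM. Called higher were Ndufa4l2 (log2 fold change 0.80), Des (1.38) and Notch3 (0.36), and called lower were Cspg4 (−0.88), Lmod1 (−2.12) and Myh11 (−1.53). Of their defining genes, Myh11 and Rgs5 were picked with their values known, and both were scarce. Myh11 had 5, 5 and 15 reads in the KO libraries against 37, 41 and 21 reads in the WT libraries. Rgs5 stood at 2.28 ± 0.330 CPM in KO and 2.14 ± 0.280 CPM in WT. No marker of that list found in the table was at 0 in all libraries. Markers of skeletal and cardiac muscle, led by Myl1, Acta1 and Mylpf, summed to 33.9 to 67.0 CPM in KO and 39.7 to 41.4 CPM in WT, with 6 of 15 called higher and none lower; other settings gave 1 to 7 rises, with 1 in limma on unfiltered log2(FPKM + 1), 2 with total counts alone and 3 without CRE3. Endothelial markers, led by Erg, Plvap and Tek, summed to 18.9 to 23.0 CPM in KO and 14.4 to 15.9 CPM in WT, with 2 of 6 higher and 1 lower, and 1 of 6 higher without CRE2 or without WT1. Their part in the members' values was not tested.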

How the data were processed

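Per the labels' protocols, chondrocyte RNA came from TRIzol extraction and the libraries from the VAHTS Universal V6 kit. Of tools, fastp, HISAT2 and HTSeq stand in the submitters' processing notes, with the build GRCm39. No source used here gives tool versions, the strand setting or the annotation. The authors deposited whole-number counts per gene symbol and FPKM values. Tested on 14764 genes, each deposited FPKM equals the count per column total and 1 length per gene.

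The WT columns matched sample titles, and the CRE columns showed their group but not which KO sample they hold. Libraries of 1 group were not duplicates: pairwise chi-square per degree of freedom was 3.19 to 8.09.

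The test on counts was the quasi-likelihood test of edgeR 4.0.16, run in R 4.3.3 (two-sided, group alone, TMM, filterByExpr with a minimum count of 10). The SE is the log2 fold change divided by the square root of F. The biological coefficient of variation was 4.88%. Alternatives used DESeq2 1.42.0, limma 3.58.1 on log2(FPKM + 1) and log2(FPKM + 0.1) with a mean FPKM of at least 1 or unfiltered, other scalings and filters, and each library left out. The fit was tested on simulated data in which a small part of the genes changed, as many up as down. That does not test the scaling where most genes differ, as in these libraries. Members, lists and the naming rule were chosen with earlier results of these data known. The rule named all members and their paralogs, the 3 list genes with the smallest p, and the 3 most abundant of each marker list. Other list genes named above fall outside the rule and were picked with their values known. A gene that this rule names is not reported here. Reads of near-identical or overlapping genes may be exchanged or left uncounted.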

Additional observations from a re-analysis of the deposited data

How the results depend on the processing

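Over the 17 other fits, the members gave 2 to 3 rises and 5 to 7 falls, and the 8 called members kept their direction in each fit that gave a value. Both limma fits on filtered FPKM left out Actg2 and Cnn1, and Tagln is among their 5 falls. The exception among calls was Tpm2, not called in limma on unfiltered log2(FPKM + 1) (0.13, adjusted p = 0.106). Tagln changed sign without CRE2 (0.0090) and without CRE3 (0.039), and ranged from −0.12 to 0.039 with 1 library left out, never called. It was called lower in limma on filtered genes with pseudocounts of 1 and 0.1 FPKM (adjusted p = 0.0154 and 0.0165). Cnn1 was called without WT1 (adjusted p = 0.0434) and in limma on unfiltered log2(FPKM + 1) (adjusted p = 0.0144), and a CPM above 1 in 3 libraries left it out. Genes called higher over the whole table numbered 4607 with TMM, 2789 with total counts alone, 2354 and 2345 in limma on log2(FPKM + 1) and log2(FPKM + 0.1), and 2706 without the FPKM filter. Genes called lower numbered 4823 with TMM, 7627 with total counts alone and 7328 in unfiltered limma. Rises were 48.9% of the calls with TMM, 38% under upper-quartile scaling, and 26.8% with total counts alone. With 1 library left out the counts were 4264 to 4773 higher and 4396 to 4774 lower, with 3 members higher and 5 to 6 lower. Shares of counts in place of FPKM, and each library left out, kept the direction of all 10 family shares. A replicate block on the column numbers gave 3 members higher and 5 lower, and 4437 and 4657 genes overall. The numbers share no known origin, and deviations of same-numbered libraries correlated across genes at −0.095 to 0.055, so the block was not used. Actg2, Cnn1 and Myl9 are limited by depth.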
